A study of Mus musculus with 9 samples.

Results

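Semaphorins are guidance proteins that steer growing axons, vessels and migrating cells. Class 3 semaphorins are secreted. Most of them act through neuropilins, which bind the ligand, and plexins, which carry the signal into the cell. Most members of classes 4, 5, 6 and 7 are instead tethered to the membrane and act on plexins directly. In the developing heart these proteins guide neural crest and endocardial cells during outflow tract and valve formation, and Sema3c, Sema3d, Sema3e, Sema6d, Plxna2, Plxnd1 and Nrp1 are the members known best for it. The set described here holds every probe set of the array whose single gene symbol is a semaphorin (Sema followed by a digit), a plexin of family A, B, C or D, or Nrp1 or Nrp2. It has 33 of the 23397 probe sets with a listed gene and covers 31 genes: 20 semaphorins, 9 plexins and 2 neuropilins.

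The tissue was the aortic valve of C57BL/6J mouse pups at postnatal day 1. A sample consisted of the pooled valves of 5 to 6 pups, kept as explants on floating filters in medium with serum for 48 hours. The medium held DMSO alone (0.001% final), 1 µmol/L all-trans retinoic acid (ATRA) dissolved in DMSO, or LE540, which the labels call an antagonist of the retinoic acid receptor. The labels used here give no dose or vehicle for LE540. Each group had 3 pools and each pool its own array, 9 arrays in all, so the p-values below measure the spread between pools. Pooled pups and whole explants limit the model: a lower signal may mean fewer cells of a type or less RNA per cell, and these cannot be told apart.

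Array medians lay between 123.61 and 128.13 intensity units. LE540 replicate 1 stood apart, at 63.7 on the first principal component with the other arrays between -21.5 and 13.9, so the members' results that rest most on it are also given without it. By their means, all 8 valve mesenchyme markers, Postn and Vim among them, lay above the array median, as did 6 of 8 endothelial, 8 of 8 cardiomyocyte and 8 of 8 macrophage markers, some of them only just. The added retinoic acid was visible in its known target Tgm2, a transglutaminase, which rose by 2.32 log2 over DMSO (adjusted p = 0.000228 in limma). The retinoid enzyme genes Dhrs3 (2.81 log2, adjusted p = 0.0508) and Cyp26a1 (1.25, 0.0512) rose as well, and the receptor gene Rarb did not pass (2.25, 0.353). With LE540 these 4 genes differed from DMSO by -0.57 to 0.14 log2, with adjusted p of 0.704 to 0.971.

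Of the 33 probe sets, 19 lay above the array median on all 9 arrays, 7 lay below it on all 9, and 7 lay on either side. Signals ran from 58.8 for Sema3e on DMSO replicate 1 to 1506 for Sema6d on the same array. Probe sets differ in how brightly they report, so signals are compared between arrays and not between genes. The plot of signals relative to DMSO shows where the groups part: in the LE540 columns most entries of Sema3a, Sema5a, Sema6d, Plxna2, Plxna4 and Nrp1 are lower, Sema3a alone is higher in every ATRA column and lower in every LE540 column, and the class 4 semaphorins stay near 0.

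**Figure D1:**
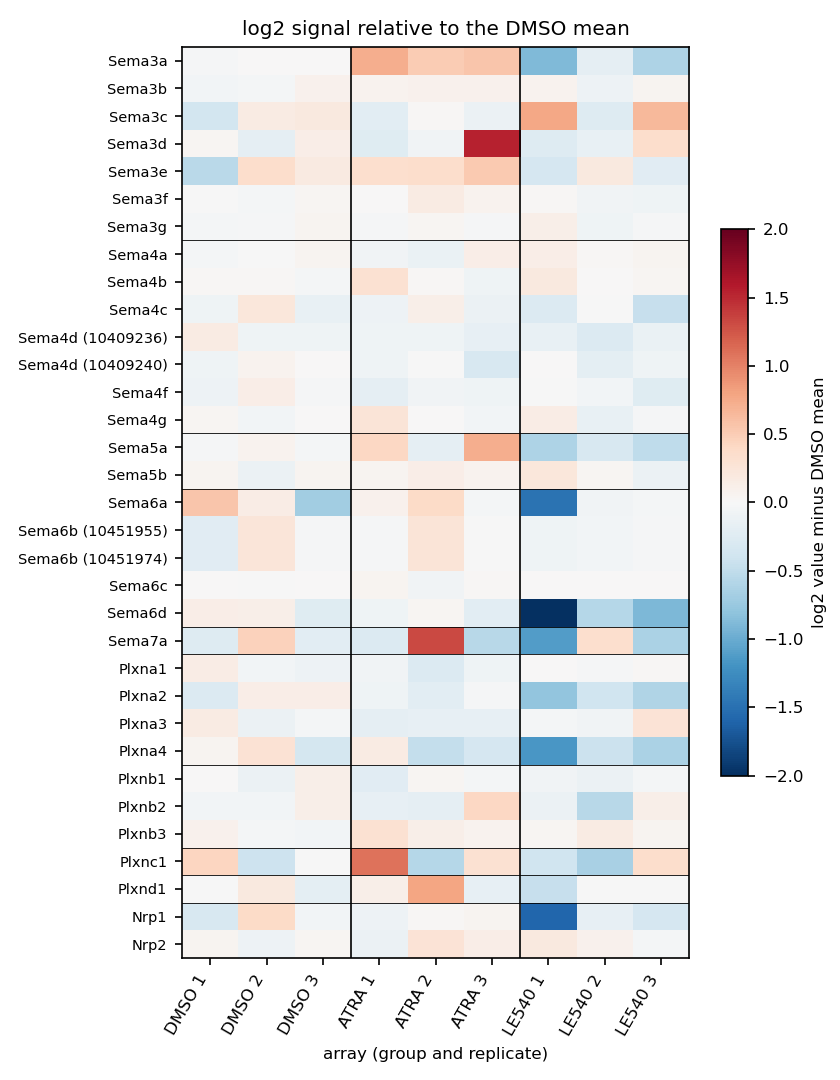
Colour gives the log2 signal of each of the 33 probe sets (rows, grouped by class) on each of the 9 arrays (columns) minus the mean of its 3 DMSO arrays, from blue (lower) to red (higher). Sema3a is red on the 3 ATRA arrays and blue on the 3 LE540 arrays, and the darkest blue is Sema6d on LE540 replicate 1.

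Of the members, 1 passed in any comparison. Sema3a was 2.24-fold higher with ATRA than with LE540 (log2 change 1.16, SE 0.17, adjusted p = 0.0384 in limma over all 23397 probe sets). Passing meant a false discovery rate (Benjamini-Hochberg adjusted p) under 0.1, the rate named by the study's own design, which also asked for a change over 2-fold. In ATRA vs LE540 this was 1 of 33 members, where 0.603% of all probe sets passed. In ATRA vs DMSO 0 of 33 passed (0.0812% of all probe sets did), and 1 had an unadjusted p under 0.05 (4.7% of all). In LE540 vs DMSO 0 of 33 passed (0.0299% of all), and 5 had an unadjusted p under 0.05, each lower with LE540 (4.33% of all probe sets were lower at that p). In ATRA vs LE540 5 members, Sema3a, Sema3e, Sema5a, Sema6d and Plxna2, were higher at that p (4.82% of all). Without LE540 replicate 1 these counts were 3 (2.97% of all) and 4 (3.72%), and with the replicate number as a block 6 (5.82%) and 7 (5.93%). The median width of the 95% confidence interval was 0.31 log2 to each side of a member's change. For a typical member, changes under about this size could not be told from 0 with 3 arrays per group, even before adjustment. Passing after adjustment took more: Sema3a in ATRA vs DMSO, at 0.60 log2, did not pass (adjusted p = 0.701 in limma).

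The members lay mostly on one side in the comparisons with LE540. With LE540 23 of 33 were lower than in DMSO (median log2 change -0.07, against 0.02 over all probe sets, of which 54.7% were higher), and with ATRA 24 of 33 were higher than with LE540 (median 0.12, against -0.03 over all, of which 43.1% were higher). In ATRA vs DMSO 20 of 33 were higher (median 0.07, against -0.01 over all, of which 48.5% were higher). There the arrays of the groups did not overlap for Sema3a, higher with ATRA (4.97% of all probe sets), and for Plxna3, lower with ATRA (6.34%). All 3 ATRA arrays lay above all 3 LE540 arrays for 9 members: Sema3a, Sema3e, Sema5a, Sema6a, Sema6d, Plxna2, Nrp1 and both probe sets of Sema6b. For Sema6a the nearest arrays read 307.04 and 306.84, and for Sema6b 146.88 and 146.00, so these 3 separations are narrow. Over all probe sets 5.24% did so. Plxna1 and Plxna3 were the 2 members with all ATRA arrays below all LE540 arrays (6.24% of all). The 2 Sema6b probe sets hold the same values on every array, so the 9 members higher with ATRA are 8 of 32 distinct measurements. Sema6b also counts as 2 in the 23, 24 and 20 of 33 above and in the 12 and 8 of the pairs below. All 3 LE540 arrays lay below all 3 DMSO arrays for 6 members, namely Sema3a, Sema5a, Sema6d, Plxna2, Plxna4 and a probe set of Sema4d (5.86% of all probe sets did so), and for 0 members did they lie above (6.74% of all). Both comparisons use the same LE540 arrays. Without LE540 replicate 1 the counts were 13 and 8 of 33, beside 9.86% and 10.9% of all probe sets, which with fewer arrays separate more often. The labels give a replicate number but do not say that equal numbers mark pairs, so counts over same-numbered arrays are descriptions only. In all 3 same-numbered pairs of ATRA and LE540 arrays 12 members were higher with ATRA (13.5% of all probe sets were): the 9 above, Sema3d, Sema4c and Sema7a. Plxna1 and Plxna3 were lower in all 3 (19.3% of all). Separated arrays differ the same way in every pair by construction, so only Sema3d, Sema4c and Sema7a are new here. Between ATRA and DMSO 8 members were higher in all 3 pairs (13.2% of all) and 3 were lower (16.2%). Between LE540 and DMSO 0 were higher with LE540 (15.6% of all) and 11 were lower (14.1%). The members with separated arrays are again among these. LE540 replicate 1 held the lowest signal of the 9 arrays for 10 of 33 members and for 16.2% of all probe sets.

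Markers of several cell types were also higher with ATRA than with LE540. Of the markers 7 of 8 for valve mesenchyme (median 0.63 log2, 1 passing), 8 of 8 for endothelium (0.59, 0 passing) and 6 of 6 for smooth muscle (0.38, 0 passing) were higher with ATRA. The smooth muscle sums did not overlap, at 3494 to 7121 with ATRA and 1894 to 3011 with LE540. Of the cardiomyocyte markers 2 of 8 were higher (-0.38) and of the macrophage markers 5 of 8 (0.33). The part of these markers in the members' shift was not tested.

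**Figure D2:**
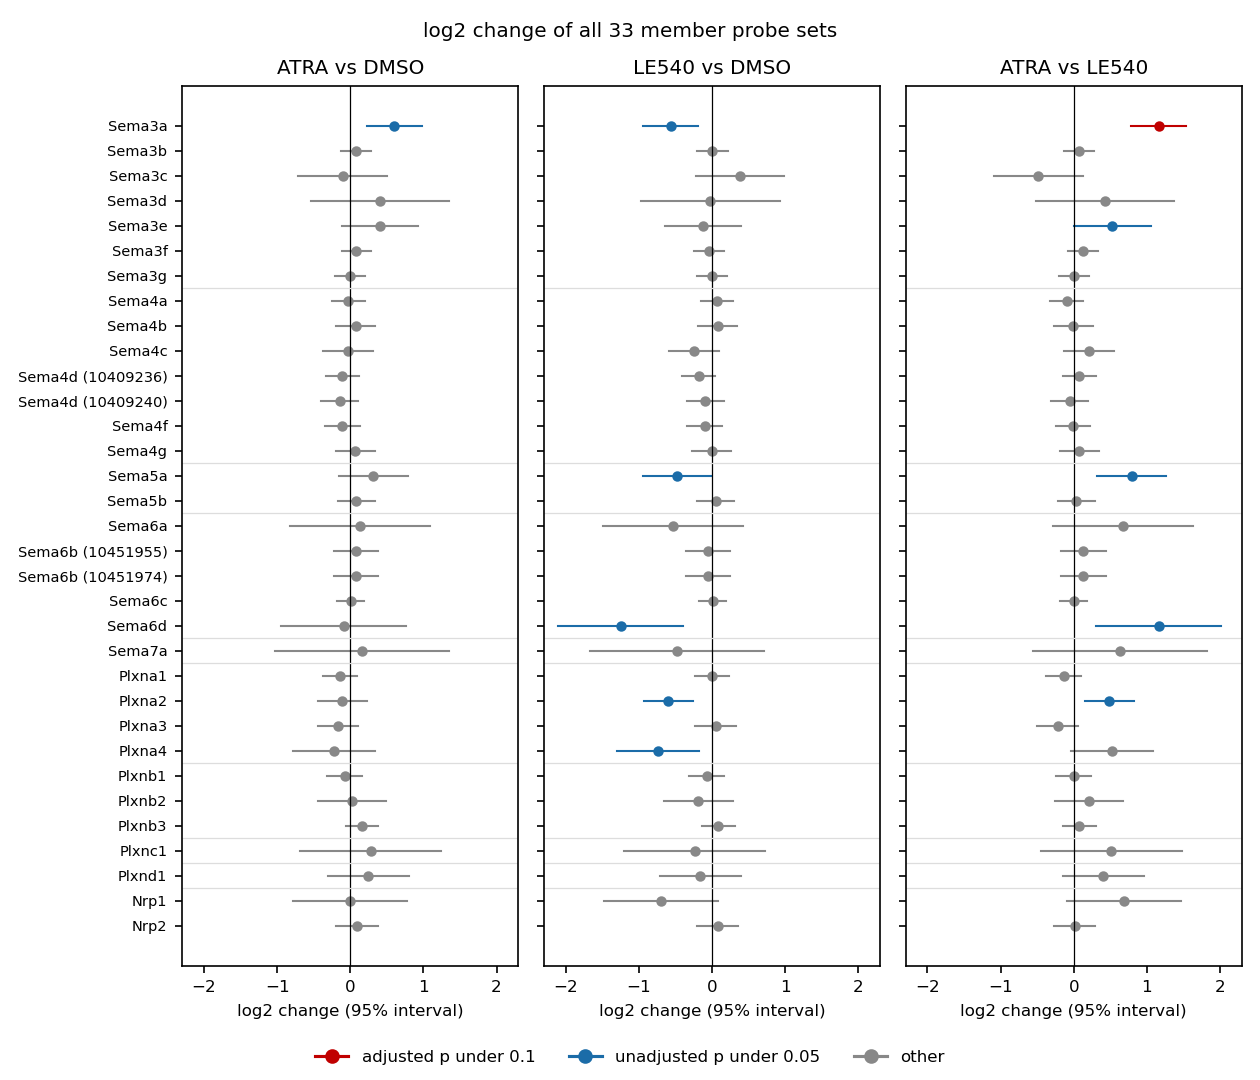
Points give the log2 change of each of the 33 probe sets in the 3 comparisons and lines its 95% confidence interval from limma. Red marks an adjusted p under 0.1, which Sema3a reached in ATRA vs LE540, and blue an unadjusted p under 0.05, reached by 1, 5 and, beside Sema3a, 4 members from left to right.

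The sequences below stand upstream of annotated starts of 3 members with separated ATRA and LE540 arrays (Sema3a, Sema5a, Plxna2) and of Sema3c, the class 3 member that differed most in the opposite direction. They are RefSeq sequences of build GRCm38.p6, plus strand, at chr5:13396534-13396783 for Sema3a, chr5:17574566-17574815 for Sema3c, chr15:32244563-32244812 for Sema5a and chr1:194619579-194619790 for Plxna2, each written 5′ to 3′. The first 3 run up to the start used. The start used for Plxna2 lies 38 bases inside the annotated gene, and the printed 212 bases stop where the gene begins. The start used for Sema3a lies inside the annotated gene, 271962 bases downstream of its first base, so the window printed is not the one before the gene's first base. Capitals mark half-sites of retinoic acid receptors, searched on both strands as AGGTCA, as its variant AGTTCA, as the form GGGTCA or as the form GGTTCA.
Sema3a: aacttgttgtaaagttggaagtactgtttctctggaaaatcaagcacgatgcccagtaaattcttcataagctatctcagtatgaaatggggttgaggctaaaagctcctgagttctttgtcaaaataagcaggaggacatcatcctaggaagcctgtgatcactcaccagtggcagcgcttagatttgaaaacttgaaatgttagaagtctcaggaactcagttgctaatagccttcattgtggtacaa
Sema3c: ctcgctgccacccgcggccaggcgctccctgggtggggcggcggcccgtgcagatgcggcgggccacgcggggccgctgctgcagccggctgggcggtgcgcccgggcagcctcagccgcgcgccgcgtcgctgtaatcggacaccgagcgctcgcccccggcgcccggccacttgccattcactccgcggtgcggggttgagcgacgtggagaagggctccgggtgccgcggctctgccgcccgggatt
Sema5a: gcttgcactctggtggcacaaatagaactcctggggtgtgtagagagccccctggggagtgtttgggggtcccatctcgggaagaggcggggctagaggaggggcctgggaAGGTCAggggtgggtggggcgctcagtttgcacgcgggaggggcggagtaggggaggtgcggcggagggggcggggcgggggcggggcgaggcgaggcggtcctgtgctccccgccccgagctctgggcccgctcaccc
Plxna2: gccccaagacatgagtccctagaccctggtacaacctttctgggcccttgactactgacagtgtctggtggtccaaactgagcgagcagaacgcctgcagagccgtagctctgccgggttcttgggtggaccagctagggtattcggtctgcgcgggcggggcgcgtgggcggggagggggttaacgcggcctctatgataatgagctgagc
The Sema3a window, which lies inside its gene, is poor in G and C (40.8% of 250 bases, with 2 CpG pairs). The Sema3c window, which ends where its gene begins, is rich in them (78.4%, with 39 CpG pairs), so the 2 are not like positions. Sema5a holds 1 AGGTCA half-site, and the other 3 stretches hold none of the 4 half-sites. RefSeq windows were found for 26 of the 31 genes, 37 windows in all: 7 of them (18.9%) hold AGGTCA on either strand, against 14% of 32851 windows of the same 250 bases before a start. Any of the 4 half-sites is found in 11 of them (29.7%), against 38.6% of all windows. Starts inside genes are counted too, such as a Sema6d start 563638 bases from the first base of its gene. The AGGTCA windows of Sema4d, Plxnb2 and Sema6b stand before such inner starts, and those of Sema4b and Sema5a end where the gene begins. These shares are therefore not shares of windows before a gene's first base. Paired half-sites in direct repeat, the elements called DR1, DR2 and DR5, which by construction overlap single half-sites, were found in 0 of the 37 windows and in 0.164%, 0.174% and 0.0883% of all windows.

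Class 3 semaphorins had 7 genes, each with 1 probe set. Sema3a, a secreted repellent that signals through Nrp1 and A-type plexins, read 145, 149 and 149 in the DMSO arrays, 245, 211 and 217 in the ATRA arrays and 79.8, 130.1 and 96.0 in the LE540 arrays (replicates 1 to 3). None of the 3 groups overlaps another, with ATRA above DMSO and DMSO above LE540. This order without overlap was found for 61 of all 23397 probe sets (0.261%), Sema3a being the 1 member among them. Means were 148 ± 2.41, 224 ± 18.3 and 102 ± 25.7 (SD, n = 3 each). Each step taken alone did not pass: ATRA vs DMSO was 0.60 log2 (SE 0.17, adjusted p = 0.701) and LE540 vs DMSO -0.56 log2 (SE 0.17, adjusted p = 0.484). The call in ATRA vs LE540 was lost in limma without ATRA replicate 1 (adjusted p = 0.12), without ATRA replicate 3 (0.125) and with the 6 arrays of these groups fitted alone (0.213), and it held without LE540 replicate 1 (1.00 log2, 0.0632). The summed signal of the 8 valve mesenchyme markers lay at 15725 to 18675 in ATRA, 14226 to 14825 in DMSO and 9411 to 14655 in LE540 arrays. Its group means had the order of Sema3a, but unlike Sema3a its LE540 arrays overlapped the DMSO arrays. Of the 8 markers 6 were higher with ATRA than with DMSO, and Vim and Tbx20 were lower. The part of this sum in the Sema3a result was not tested.

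Sema3e, the ligand of Plxnd1, read 58.8, 108 and 96.6 with DMSO, 108, 109 and 123 with ATRA and 67.4, 97.2 and 72.8 with LE540. ATRA lay above LE540 on every array but not apart from DMSO (ATRA vs LE540 0.53 log2, SE 0.23, adjusted p = 0.518). Sema3c, which draws neural crest cells into the outflow tract, went the other way. It read 135, 195 and 198 with DMSO, 149, 176 and 159.6 with ATRA and 295, 145 and 270.3 with LE540, so 2 LE540 arrays were high and the third was among the low values (LE540 vs DMSO 0.38 log2, SE 0.27, adjusted p = 0.679; ATRA vs LE540 -0.49 log2, adjusted p = 0.618). Without LE540 replicate 1 these were 0.19 and -0.29 log2. Sema3a, Sema3c, Sema3d and Sema3e all lie on chromosome 5 in RefSeq, and their patterns over the arrays differed.

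Sema3d, a guide of endothelial and neural crest cells, read 81.9, 70.2 and 87.4 with DMSO, 67.1, 76.1 and 230.5 with ATRA and 66.2, 71.8 and 101 with LE540. A single array, ATRA replicate 3, was high: ATRA vs DMSO was 0.41 log2 (SE 0.42) with it and -0.15 without it. The summed signal of the 6 smooth muscle markers was also highest on that array (7121, with the other ATRA arrays at 3494 and 3565), and its part was not tested. Sema3f, a ligand that favours Nrp2, read 212, 207 and 219 with DMSO, 214, 239 and 223 with ATRA and 217, 204 and 199.5 with LE540, and the groups overlap. Sema3b and Sema3g, the remaining secreted members, had log2 changes of 0.00 to 0.08 in ATRA vs DMSO and of -0.00 to 0.01 in LE540 vs DMSO.

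The membrane semaphorins of class 4 had 6 genes on 7 probe sets, none of which passed. Their log2 changes lay between -0.14 and 0.08 in ATRA vs DMSO and between -0.24 and 0.08 in LE540 vs DMSO. Sema4c, a ligand of B-type plexins, read 173, 215 and 165 with DMSO, 170.0, 198 and 169 with ATRA and 151, 183 and 134 with LE540, and the groups overlap. Within same-numbered pairs it was higher with ATRA than with LE540 by 0.17, 0.12 and 0.34 log2 (ATRA vs LE540 0.21 log2). Sema4d, the ligand of Plxnb1, has 2 probe sets, which read 164 ± 16.1 and 117 ± 6.02 with DMSO, 152 ± 4.75 and 106 ± 11.7 with ATRA and 144 ± 7.25 and 109.7 ± 7.46 in LE540 arrays (SD, n = 3 each). The LE540 arrays lay below the DMSO arrays in the first and overlapped them in the second (-0.18 and -0.09 log2, adjusted p = 0.617 and 0.822). Sema4b, at 159.8 ± 4.17 with DMSO, 169 ± 24.2 with ATRA and 169 ± 12.0 with LE540, had the next largest positive change with LE540 after Sema3c and Plxnb3 (0.08 log2).

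In class 5, whose members carry thrombospondin repeats, the genes differed. Sema5a read 373, 399 and 371 with DMSO, 505, 335 and 629.9 with ATRA and 249, 306 and 268 with LE540. LE540 arrays were below every other array, and among ATRA arrays replicate 2 was below DMSO. ATRA vs LE540 was 0.79 log2 (SE 0.21, adjusted p = 0.242), and it passed without ATRA replicate 2 (1.04 log2, adjusted p = 0.0412). LE540 vs DMSO was -0.48 log2 (SE 0.21, adjusted p = 0.561). Sema5b lay between 112 and 142 on all 9 arrays, with changes of 0.05 to 0.08 log2 against DMSO.

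Class 6, transmembrane ligands and receptors of A-type plexins, held the largest change of the set. Sema6d, which acts through Plxna1 in the heart, read 1506, 1486 and 1167 with DMSO, 1294, 1408 and 1190.2 with ATRA and 283, 925 and 743 with LE540. Every LE540 array was below every DMSO and ATRA array, and LE540 replicate 1 was by far the lowest. The change was -1.25 log2 against DMSO (2.38-fold lower, SE 0.38, adjusted p = 0.497) and 1.16 in ATRA vs LE540 (SE 0.38, adjusted p = 0.357), so it did not pass in either. Without LE540 replicate 1 it was -0.73 log2 (SE 0.16, adjusted p = 0.562) and 0.64 log2 (SE 0.16, adjusted p = 0.322).

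Sema6a, a ligand of Plxna2 and Plxna4, read 465, 350.5 and 195 with DMSO, 334, 412 and 307 with ATRA and 114, 301 and 307 with LE540. It varied widely within DMSO, and LE540 replicate 1 was again lowest (LE540 vs DMSO -0.53 log2, SE 0.42, adjusted p = 0.714). Without that array the change was -0.06 log2 (SE 0.33), and ATRA vs LE540 went from 0.67 to 0.20. Sema6b and Sema6c had changes of at most 0.08 log2 against DMSO. Sema6c was listed at the same value, 92.3, on 5 of 9 arrays. Repeated values of this kind (3 or more arrays) occurred in 5 of 33 members and in 16.7% of all probe sets.

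**Figure D3:**
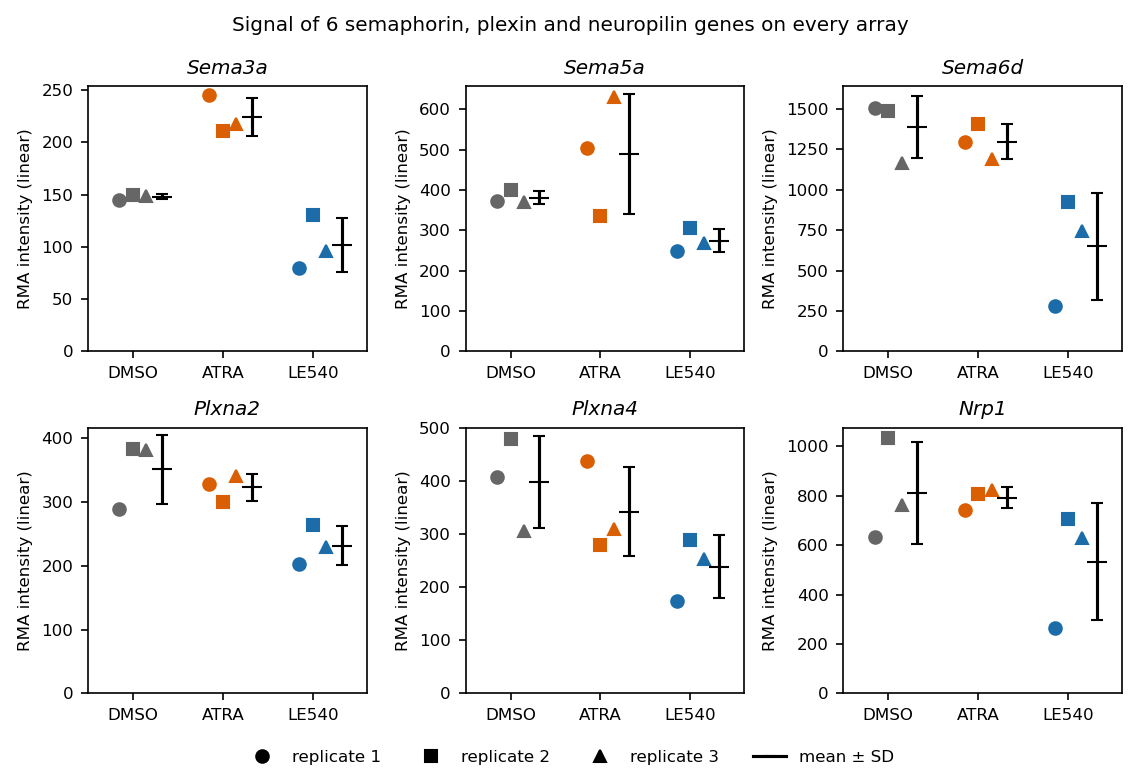
Points give the RMA intensity of 6 genes on each of the 9 arrays by group, with marker shape for the replicate number and bars for mean ± SD (n = 3). Sema3a separates all 3 groups, Sema5a, Sema6d and Plxna2 separate LE540 from both others, and in Nrp1 LE540 replicate 1 at 265 lies far below the other 8 arrays.

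Sema7a, a lipid-anchored semaphorin that binds Plxnc1 and integrins, varied within each group. Sema7a read 232, 381 and 238 with DMSO, 227, 691 and 187 with ATRA and 127, 348 and 177 with LE540, with replicate 2 the highest of each group. The summed signal of the 8 endothelial markers was likewise highest on replicate 2 of each group: 2423 with DMSO, 4633 with ATRA and 2228 with LE540, with the other arrays between 884 and 1655. The endothelial markers were higher with ATRA than with DMSO in 8 of 8 genes, none of them passing. Their part in the Sema7a signal was not tested. Sema7a differed by 0.16 log2 in ATRA vs DMSO (SE 0.52, adjusted p = 0.999), and without ATRA replicate 2 by -0.42. LE540 vs DMSO was -0.47 log2, and -0.15 without LE540 replicate 1.

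Among the receptors, A-type plexins are the signalling partners of Sema3a and of class 6 ligands. Plxna2 read 289, 384 and 382 with DMSO, 329, 300.4 and 341 with ATRA and 202, 265 and 229 with LE540. LE540 arrays were below all others, and ATRA overlapped DMSO. It had the lowest unadjusted p of the members in LE540 vs DMSO, at -0.60 log2 (SE 0.15, unadjusted p = 0.00301, adjusted p = 0.389), and -0.50 without LE540 replicate 1.

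Plxna4, a receptor of Sema3a and Sema6a, read 408, 479.5 and 306 with DMSO, 437, 280.1 and 309.7 with ATRA and 175, 289.7 and 253 with LE540. LE540 was below DMSO on every array but overlapped ATRA (-0.74 log2 against DMSO, SE 0.25, adjusted p = 0.529). Without LE540 replicate 1 the change against DMSO was -0.53 log2 (unadjusted p = 0.0593 in limma). ATRA vs LE540 was 0.52 log2, and 0.31 without LE540 replicate 1. Plxna1 and Plxna3 did not follow: LE540 vs DMSO was 0.00 log2 for Plxna1 (95% interval -0.23 to 0.24) and 0.05 for Plxna3 (-0.23 to 0.33). Plxna3 read 210.2, 173 and 182 with DMSO, 166, 168 and 167 with ATRA and 182, 178 and 228 with LE540, so the ATRA arrays were just below all others (-0.17 log2 against DMSO, SE 0.12, adjusted p = 0.999). Plxna1 read 503, 436 and 423 with DMSO, 433, 376 and 429 with ATRA and 454, 447 and 460.0 with LE540. It was lower on every ATRA array than on any LE540 array, by 0.14 log2 between the means (ATRA vs LE540 -0.14, SE 0.10, adjusted p = 0.72).

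The B-type plexins, receptors of class 4 semaphorins, differed by -0.19 to 0.16 log2 against DMSO. Plxnb2 read 391, 394 and 440.3 with DMSO, 363, 360.1 and 542 with ATRA and 377, 278 and 440.0 with LE540, with full overlap. Plxnb1 lay at 154 ± 12.1, 147 ± 13.3 and 147 ± 4.37 in DMSO, ATRA and LE540, and Plxnb3 at 74.2 ± 3.83, 83.0 ± 7.09 and 78.7 ± 3.71 (SD, n = 3 each). Plxnc1, the receptor of Sema7a, read 141, 78.7 and 105 with DMSO, 224, 71.1 and 129.9 with ATRA and 79.8, 66.8 and 134 with LE540, and replicate 2 was the lowest of each group. Its change was 0.28 log2 in ATRA vs DMSO (SE 0.42) and -0.13 without ATRA replicate 1.

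Plxnd1, the endothelial receptor of Sema3e, read 185, 214 and 163 with DMSO, 202, 322 and 166 with ATRA and 135, 185 and 185 with LE540. ATRA replicate 2 was the highest array, as it was for the endothelial markers given above, whose part was not tested. ATRA vs DMSO was 0.25 log2 (SE 0.24, adjusted p = 0.999) and -0.03 without ATRA replicate 2.

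**Figure D4:**
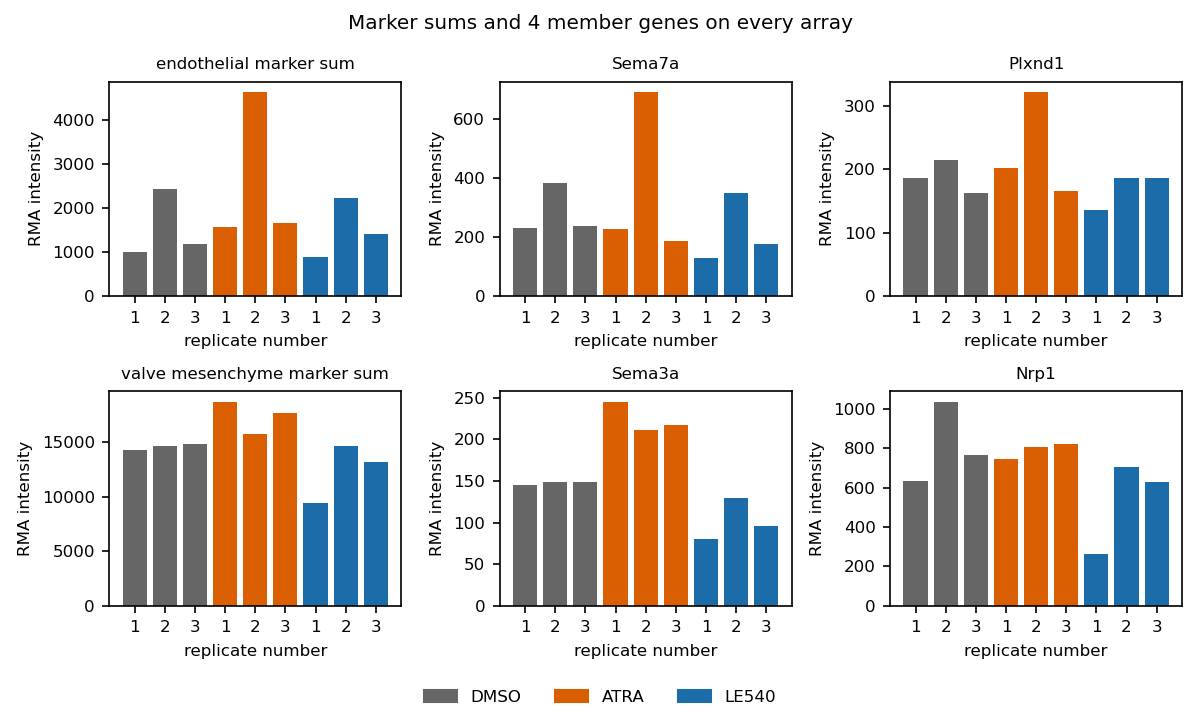
Bars give the summed RMA intensity of 8 endothelial and 8 valve mesenchyme markers and the intensity of Sema7a, Plxnd1, Sema3a and Nrp1 on each of the 9 arrays, coloured by group. The endothelial sum and Sema7a are highest on replicate 2 of each group, and LE540 replicate 1 has the lowest mesenchyme sum (9411) and the lowest Nrp1 signal.

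The neuropilins bind class 3 semaphorins and vascular endothelial growth factors. Nrp1, the partner of Sema3a, read 635, 1036 and 764 with DMSO, 743, 808 and 823 with ATRA and 265, 706 and 631 with LE540. LE540 was below ATRA on every array and overlapped DMSO. The change with LE540 was -0.70 log2 against DMSO (SE 0.34, adjusted p = 0.591) and -0.25 without LE540 replicate 1. ATRA vs LE540 was 0.69 log2, and 0.25 without that array. Nrp2, the partner of Sema3f, read 248 ± 15.1, 265 ± 35.7 and 261 ± 21.7 in DMSO, ATRA and LE540 (SD, n = 3 each), with 95% intervals of -0.19 to 0.37 log2 for ATRA and -0.20 to 0.36 for LE540 against DMSO.

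Genes linked to these proteins were read from a list of 49, of which 48 were measured. It holds coreceptors, alternative ligands, intracellular partners and the plexin-domain genes Plxdc1 and Plxdc2. In ATRA vs DMSO 0 of 48 passed in limma, with 3 higher and 0 lower at an unadjusted p under 0.05 (2.34% and 2.36% of all probe sets), and the largest changes were those of the growth factor gene Pgf (1.15 log2, SE 0.68, high on ATRA replicate 2 alone) and the small GTPase gene Rnd3 (-0.45 log2, SE 0.30). In LE540 vs DMSO 0 of 48 passed, with 5 higher and 4 lower at that p (4.47% and 4.33% of all). The extremes were Fyn, a kinase in the Sema3a pathway, at 1.21 log2 (SE 0.32, adjusted p = 0.428), and Plxdc2, a plexin-domain protein and not a member of the set, at -1.28 log2 (SE 0.49, adjusted p = 0.541). With LE540 Fyn read 1397, 694 and 780 (DMSO 381, 510.5 and 311) and Plxdc2 164, 302 and 658 (DMSO 1076, 497 and 867). LE540 replicate 1 was the most extreme array for both, and fits without it are not given for these genes. In ATRA vs LE540 1 of 48 passed, upward (0.603% of all probe sets passed), with 5 higher and 3 lower at that p (4.82% and 4.72% of all). It was Itga1, the collagen-binding integrin that pairs with Itgb1, the integrin beta chain through which Sema7a acts. Itga1 read 350.1, 394 and 309.8 with DMSO, 473, 571 and 380.1 with ATRA and 275, 249 and 268 with LE540 (ATRA vs LE540 0.83 log2, SE 0.16, adjusted p = 0.0957). LE540 arrays were below all others for this gene too. Its adjusted p lay just under the cut of 0.1, and its change was under 2-fold. Fits under other settings are not given for Itga1. The list's median was 0.04 log2 in ATRA vs DMSO, -0.03 in LE540 vs DMSO and 0.04 in ATRA vs LE540, against -0.01, 0.02 and -0.03 over all probe sets.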

How the data were processed

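Total RNA of each pool was amplified and hybridized to its own array. The deposited intensity values are on a linear scale and, per the labels' processing notes, came from Affymetrix Expression Console 1.1 and RMA (background correction, normalization between arrays, 1 value per probe set). Genome build and annotation are not given in the sources used here. Genes were named from the platform table; 23397 of 28270 rows had a symbol and were tested, and 4873 were left out.

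From these values log2 was taken, and limma 3.58.1 in R 4.3.3 was fitted to all 9 arrays with 3 groups (6 residual degrees of freedom), two-sided, with Benjamini-Hochberg adjustment over all tested probe sets. Precision is set by 3 arrays per group. SE and 95% intervals are those of the fit; mean ± SD is over intensities. The fit was tested on simulated data.

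The members, lists and tests were chosen with earlier results of these data known. Of the members, 21 were given with every array's value or all group means by rule: any that passed, the 3 largest changes each way per comparison, the member with the highest signal of each class, and Nrp1, Nrp2, Plxna2, Plxnd1, Sema3a, Sema3c, Sema3d and Sema3e. Other members, among them Sema6a, are named to account for all. For listed genes with several probe sets the brightest was used. Marker lists for Schwann cells and neurons (summed signal 1009 to 2033), melanocytes (599 to 1445) and lymphocytes (288 to 373) overlapped between groups.

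Arrays with equal replicate numbers deviated together across probe sets: r was 0.143 to 0.342 for ATRA and DMSO and 0.261 to 0.282 for ATRA and LE540, but 0.00946 to 0.215 for LE540 and DMSO. These ranges overlap: ATRA and DMSO at replicate 1 gave 0.143, below LE540 and DMSO at replicate 2 (0.215). The labels give only a biological replicate number, so whether equal numbers mark pairs is unsettled. The main fit used no pairing. Alternatives were the replicate block, the arrays in the fit, quantile normalization, a filter on dim probe sets, all rows, array weights, a fold threshold and leaving out each array. Values without LE540 replicate 1, counts within same-numbered pairs and counts with Sema6b once were added after seeing the data.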

Additional observations from a re-analysis of the deposited data

How the results depend on the processing

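Sema3a in ATRA vs LE540 kept its direction under all 15 other settings of the fit and its call under 12 of them; it was lost with 2 groups only and without ATRA replicate 1 or 3. With the replicate block its adjusted p was 0.062, and the block changed no call of a member. Members called in ATRA vs LE540 numbered 1, or 0 with 2 groups only, and 0 to 2 with 1 array left out; in LE540 vs DMSO they numbered 0, or 0 to 1 with 1 array left out (Sema3a, adjusted p = 0.0903 without LE540 replicate 2); in ATRA vs DMSO they numbered 0 throughout. Over all probe sets, calls in ATRA vs DMSO were 19, and 29 with the replicate block, 9 with 2 groups only, 10 with the dim filter, 71 with array weights and 4 to 22 with 1 array left out. In LE540 vs DMSO they were 7, and 1 with the replicate block, 1 with 2 groups only, 0 after quantile normalization, 0 with all rows tested and 0 to 297 with 1 array left out (98 without LE540 replicate 2, 297 without LE540 replicate 3). In ATRA vs LE540 they were 141, and 221 with the replicate block, 25 with 2 groups only and 54 to 278 with 1 array left out. The cause of these shifts was not tested. Of 63 changes of named members, 16 changed sign under at least 1 setting, none of them a called change. How far a signal stands above background is unknown, so small changes of the dimmest members are uncertain.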
